A study of Mus musculus with 4 samples.

Results

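The cytosolic ribosomal protein genes encode the proteins of the large and small ribosomal subunits, and 77 of them were described here in CD45.2-enriched spleen cells of leukaemic mice. They were chosen by symbol (Rpl, Rplp or Rps with a number and at most 1 letter a, l, x or y, or Rpsa, without pseudogene and S6 kinase symbols) and by a level of at least 1 TPM in 2 or more libraries. TPM is the share of a transcript among all transcripts after correction for transcript length, scaled to a fixed total. Of 82 matching symbols among 24497 listed features, 47 large subunit and 30 small subunit genes met the minimum. The 5 matching symbols below it were Rpl10l, Rpl30, Rpl39l, Rps27 and Rps4l. One of the 77, Rpl32l, is annotated as a processed pseudogene in GENCODE M21.

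Every mouse was a sub-lethally irradiated (320 rads) secondary recipient of MLL-AF9 leukaemia cells, 50000 per animal. MLL-AF9 is a fusion oncogene of acute myeloid leukaemia, and the donor cells carry the CD45.2 form of the CD45 surface protein. The CS1 group (2 libraries) received CS1, which the labels call an inhibitor of the RNA demethylase FTO, intraperitoneally at 5 mg/kg on alternate days over 20 days, and the PBS group (2 libraries) received PBS as the control. The labels give no age, sex or strain, and do not say whether replicates are separate animals; the p-values therefore cover the spread between libraries, possibly a technical one. For CS1 replicate 2 the treatment field says CS2, against CS1 in the title and description, and the library stayed with CS1.

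Ribosomal protein mRNAs are among the most abundant of growing cells. Nearly all begin with a C followed by a run of pyrimidines, the terminal oligopyrimidine tract, through which the mTOR kinase and the binding protein LARP1 set how strongly they are translated. Their proteins are needed in equal numbers, and unassembled ones are degraded. Red cell precursors are known to be sensitive to loss of 1 copy of many of these genes, the cause of Diamond-Blackfan anaemia in humans. In haematopoietic progenitors the amount of ribosomes is known to be tightly held.

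Runs of pyrimidines can be seen near some of the annotated starts. RefSeq promoter windows on GRCm38.p6 were found for 58 of the 77 genes, with 70 windows in all since some genes have several starts. A run of at least 8 bases of C or T within 10 bases of the start was present on the transcript strand in 29 of the 70 windows (41.4%), against 13.8% of the 11376 windows of other tested features and 13.7% of all 32851 promoter windows. The following 30-base windows, 15 bases on each side of the start, are from the 3 genes with the highest and the 3 with the lowest log2 fold change in each subunit among those with a run inside the window. Capitals mark the run.
Rpl34 (chr3:130730384-130730413, minus strand): cgCCTTCCCTgacgtacttcctgtccggcg
Rpl14 (chr9:120571502-120571531, plus strand): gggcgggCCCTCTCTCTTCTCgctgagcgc
Rpl28 (chr7:4792950-4792979, plus strand): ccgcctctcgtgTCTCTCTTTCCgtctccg
Rpl18 (chr7:45718056-45718085, plus strand): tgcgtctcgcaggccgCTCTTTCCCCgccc
Rpl7a (chr2:26910792-26910821, plus strand): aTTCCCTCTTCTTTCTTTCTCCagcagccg
Rpl19 (chr11:98026909-98026938, plus strand): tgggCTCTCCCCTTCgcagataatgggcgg
Rps18 (chr17:33955651-33955680, minus strand): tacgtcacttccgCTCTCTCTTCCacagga
Rps26 (chr10:128626492-128626521, minus strand): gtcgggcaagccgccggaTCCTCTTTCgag
Rps15a (chr7:118116133-118116162, minus strand): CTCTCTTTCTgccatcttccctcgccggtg
Rps24 (chr14:24490663-24490692, plus strand): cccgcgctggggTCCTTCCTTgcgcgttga
Rps9 (chr7:3704026-3704055, plus strand): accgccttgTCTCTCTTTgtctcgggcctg
Rps27l (chr9:66946071-66946100, plus strand): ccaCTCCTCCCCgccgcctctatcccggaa

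Runs of this kind stood near the starts of genes with high folds, such as Rpl14 and Rps18, and of genes with small or negative ones, such as Rps9 and Rps27l. Some end before the annotated start, as in Rps27l and Rpl34, or begin after it, as in Rps26. Those runs do not show a tract at the annotated first base of the transcript. The median log2 fold change, CS1 over PBS, was 0.38 over the 28 genes with a run and 0.30 over the 30 genes with a window and none. The ETS family core CCGGAAG, searched on both strands, was in 25 of the 70 windows (35.7%), against 18.1% of the windows of other tested features and 8.86% of all promoter windows. The pyrimidine element CTCTTTC was in 28.6% of member windows, 7.23% of other tested windows and 8.16% of all windows on either strand, and it can lie inside the runs above. The GC box GGGCGG was in 58.6% of member windows, below the 61.6% of other tested windows, and in 35.7% of all. For the YY1 core AAGATGG the shares were 14.3% of member, 7.23% of other tested and 6.34% of all windows. The E box CACGTG, which MYC and its partner MAX are known to bind, was in 11.4% of member windows, close to the 10.1% of other tested windows, and in 7.15% of all. The TATA box TATAAA was in 10% of member, 6.80% of other tested and 13.6% of all windows. These are matches of letters only. The 100 bases before an annotated start are shown for the 2 genes with the highest and the 2 with the lowest positive fold among those with the ETS core there, with the core in capitals on either strand; for Rpl19 this is another start than the one above.
Rps25 (chr9:44407614-44407713, plus strand): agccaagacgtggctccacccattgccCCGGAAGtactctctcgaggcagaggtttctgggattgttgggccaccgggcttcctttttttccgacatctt
Rpl38 (chr11:114668480-114668579, plus strand): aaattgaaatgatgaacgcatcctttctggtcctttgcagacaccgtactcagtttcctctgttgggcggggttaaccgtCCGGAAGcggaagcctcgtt
Rps7 (chr12:28635954-28636053, minus strand): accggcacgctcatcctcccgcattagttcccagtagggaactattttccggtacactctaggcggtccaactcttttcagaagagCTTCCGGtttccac
Rpl19 (chr11:98026610-98026709, plus strand): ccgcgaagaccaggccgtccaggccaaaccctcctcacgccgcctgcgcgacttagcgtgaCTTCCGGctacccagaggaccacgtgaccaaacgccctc

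Together the 77 genes took 14.9% and 15.3% of all TPM in CS1 and 11.8% and 11.9% in PBS. Both CS1 libraries lay above both PBS libraries, and the difference of the means was 3.20 percentage points (15.1 ± 0.268% in CS1 and 11.9 ± 0.0699% in PBS, SD, n = 2 each). An exact permutation test over the 4 libraries gave a two-sided p of 0.333, which is the smallest this design allows. In bulk samples such as these, more RNA of a kind per cell and more cells of a type rich in it cannot be told apart. Since TPM is a share, other features took 3.20 points less of the total in CS1.

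Large subunit genes summed to 8.45% and 8.72% of TPM in CS1 and to 6.65% and 6.69% in PBS. Small subunit genes summed to 6.45% and 6.57% in CS1 and to 5.20% and 5.25% in PBS. The groups did not overlap in either subunit. The large over small ratio of summed TPM was 1.31 and 1.33 in CS1, against 1.28 and 1.27 in PBS (exact permutation p = 0.333, two-sided). Without the 3 most abundant genes the ratio still differed in the same direction, by 0.029, against 0.042 with them.

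**Figure D1:**
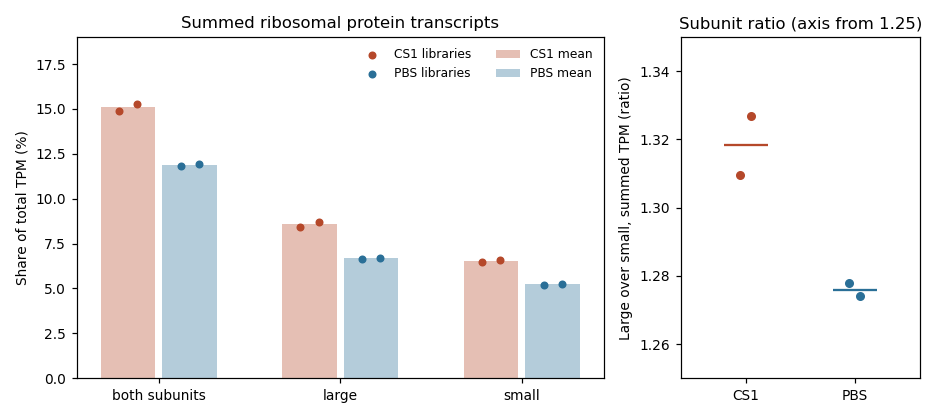
Left, share of total TPM (%) taken by all 77 genes and by each subunit, with bars for group means and points for the 2 libraries of each group. Right, the ratio of summed TPM of large over small subunit genes on an axis that does not start at 0, with lines for group means. The CS1 points, 14.9% and 15.3%, lie above the PBS points, 11.8% and 11.9%.

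Each gene was then compared in a limma fit over all 11866 features with at least 1 TPM in 2 or more libraries, on log2(TPM + 1), with Benjamini-Hochberg adjustment over all of them. A feature was called where the adjusted p was below 0.05. Of the 77 ribosomal protein genes, 71 (92.2%) rose, beside 35.3% of all tested features called higher. Called lower were 3 genes, Rpl26, Rpl3l and Rps27l, beside 31.6% of all tested features. Rpl26 was listed at 0.01 in both CS1 libraries, so it met the minimum only through PBS. Its call is not read as a fall, since the sum with its near-identical copy, described below, was higher in CS1. Rpl37, Rps3 and Rps9 did not pass. In either direction 67.0% of all tested features were called, so a call alone sets few genes apart here. Both CS1 libraries were above both PBS libraries for 73 of the 77 genes, beside 45.1% of all tested features, and both were below for 3, beside 39.3%.

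By subunit, 44 of 47 large subunit genes rose and 2 were called lower, Rpl3l and, with the limit given above, Rpl26. In the small subunit 27 of 30 genes rose and 1 fell. The median log2 fold change was 0.36 for the large and 0.30 for the small subunit, 0.33 over both, and 0.04 over all tested features. The middle range of the 77 genes, between the first and last quartiles, ran from 0.26 to 0.44, while that of all tested features ran from -0.26 to 0.35. A fold of at least 0.3 was reached by 46 of the 77 genes (59.7%, beside 28.5% of all tested features). One of at least 0.5 was reached by 11 (14.3%, beside 16.8%). The shift was thus small and shared by many members, with few large changes among them. Among 207 other protein-coding features averaging at least 500 TPM, by contrast, the median log2 fold change was -0.20, and 62 rose while 127 fell.

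Replicates lay close together. For the 73 genes averaging above 100 TPM, the median absolute log2 difference was 0.03 between the CS1 libraries and 0.02 between the PBS libraries, against 0.31 to 0.37 across groups. Over all 11866 tested features it was 0.06 within either group and 0.31 to 0.32 across groups, so the distance across groups was similar. CS1 replicate 2 was above CS1 replicate 1 in 68 of these 73 genes, with a median difference of 0.03 on the log2 scale. Over all tested features it was above in 5092 of 11866, with a median difference of -0.01. The order of levels was largely shared by the groups, with Pearson's r of 0.99 across those 73 genes between mean log2 levels in CS1 and PBS, which describes genes and not independent replicates. Of the 77 genes, 60 averaged 1000 TPM or more, and 4 (Rpl26, Rpl3l, Rpl32l and Rpl34) averaged below 100 TPM.

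**Figure D2:**
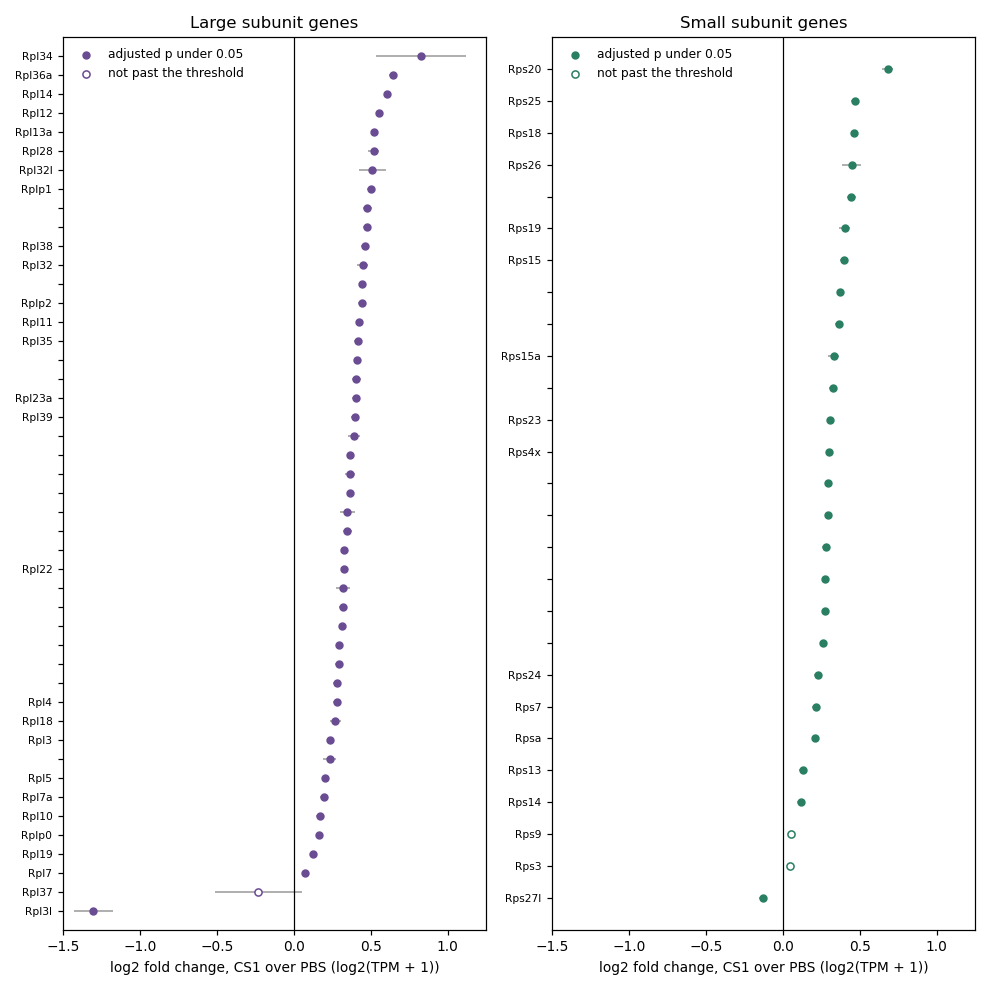
Log2 fold change of each gene, CS1 over PBS, on log2(TPM + 1), with bars for the standard error of the limma fit, for large subunit genes (left) and small subunit genes (right). Filled points passed an adjusted p of 0.05. The panels draw 46 of the 47 large and 27 of the 30 small subunit genes, and those described by name are labelled. Rpl26, listed at 0.01 in both CS1 libraries, is not drawn. Most points lie between 0.2 and 0.6, with Rpl3l at -1.30 far from the rest.

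The highest folds among large subunit genes, after that of Rpl34, were those of Rpl36a, Rpl14 and Rpl12. Rpl36a (chromosome X, 134585654 to 134588062, mm10) measured 1400 and 1442 TPM in CS1 and 896 and 925 TPM in PBS. The groups were far apart compared with the gap between replicates, and Rpl36a rose by 0.64 ± 0.03 (log2 fold change, SE, adjusted p = 1.29e-05). Rpl14 (chromosome 9, 120571444 to 120574654) measured 744 and 755 TPM in CS1 and 490 and 495 TPM in PBS (0.60 ± 0.02, adjusted p = 7.30e-06). Rpl12, which binds at the base of the stalk, measured 2803 and 2890 TPM in CS1 and 1948 and 1931 TPM in PBS (0.55 ± 0.02, adjusted p = 1.30e-05).

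The stalk is the arm of the large subunit that recruits elongation factors. Its genes moved by unequal amounts. Rplp1, one of the acidic proteins that form its tip as pairs, measured 2956 and 2925 TPM in CS1 and 2125 and 2031 TPM in PBS, a log2 fold change of 0.50 ± 0.03 (adjusted p = 3.23e-05). Its partner Rplp2 measured 1848 and 1898 TPM in CS1 and 1396 and 1364 TPM in PBS (0.44 ± 0.02). Rplp0, the protein that anchors both pairs, measured 2772 and 2787 TPM in CS1 and 2510 and 2445 TPM in PBS. The groups of Rplp0 did not overlap, but its fold was small (0.17 ± 0.02, adjusted p = 0.000880), and it was negative after quantile normalization (-0.05, adjusted p = 0.0388).

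Rpl5 and Rpl11 form a particle with the 5S ribosomal RNA and, when not assembled, are known to bind MDM2 and thereby stabilise p53. Rpl11 measured 2600 and 2650 TPM in CS1 and 1962 and 1958 TPM in PBS (0.42 ± 0.02, adjusted p = 2.04e-05). Rpl5 measured 1192 and 1224 TPM in CS1 and 1046 and 1055 TPM in PBS (0.20 ± 0.02, adjusted p = 0.000449). Each rose with groups that did not overlap, Rpl11 by the larger fold; the difference between the folds was not tested.

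Of 9 genes of the polypeptide exit tunnel and its mouth, 8 rose, beside 92.2% of the 77 genes and 35.3% of all tested features. The other gene, Rpl26, was called lower but met the minimum only through PBS. Rpl23a, which lies at the mouth and is known to contact the signal recognition particle, measured 3166 and 3230 TPM in CS1 and 2388 and 2457 TPM in PBS (0.40 ± 0.02). Its neighbour Rpl35 measured 2565 and 2655 TPM in CS1 and 1952 and 1960 TPM in PBS (0.42 ± 0.02). The most abundant large subunit genes were Rpl10, Rpl32 and Rpl28. Rpl10, a late-joining protein near the peptidyl transferase centre, measured 3685 and 3753 TPM in CS1 and 3249 and 3364 TPM in PBS (0.17 ± 0.02). Rpl32 measured 3819 and 4100 TPM in CS1 and 2883 and 2920 TPM in PBS (0.45 ± 0.04). Rpl28 measured 3694 and 3940 TPM in CS1 and 2696 and 2628 TPM in PBS (0.52 ± 0.03). In these 3 genes all CS1 values were above all PBS values. Rpl7 had the lowest fold among large subunit genes that rose (2080 and 2128 TPM in CS1, 1985 and 2015 TPM in PBS, 0.07 ± 0.02, adjusted p = 0.0229), and after quantile normalization it was lower in CS1 (-0.07).

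Among the higher folds of the small subunit were those of Rps20 and Rps25. Rps20, a protein of the head of the subunit (chromosome 4, 3831334 to 3835665), measured 310 and 313 TPM in CS1 and 200 and 188 TPM in PBS. It rose by 0.68 ± 0.03 (adjusted p = 2.50e-05), the highest fold of the subunit. Rps25, known to be needed for initiation at some viral internal entry sites, measured 2654 and 2761 TPM in CS1 and 1937 and 1967 TPM in PBS (0.47 ± 0.03). Neither gene had overlapping groups.

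Of 11 genes along the mRNA path and at the decoding centre, 9 rose, 0 fell and 2 did not pass, and the median log2 fold change was 0.31. Of all 77 genes 92.2% rose, at a median of 0.33, and of all tested features 35.3% were called higher. Rps18 and Rps15, head proteins whose tails reach towards the tRNAs, measured 3145 and 3154 TPM (Rps18) and 3102 and 3189 TPM (Rps15) in CS1. In PBS they measured 2301 and 2273 TPM (Rps18) and 2397 and 2382 TPM (Rps15). Their log2 fold changes were 0.46 ± 0.02 and 0.40 ± 0.02. The members that did not pass were Rps3, at the site where mRNA enters, and Rps9, beside it. Rps3 measured 958 and 971 TPM in CS1 and 932 and 936 TPM in PBS (log2 fold change 0.05 ± 0.02, adjusted p = 0.0730). Rps9, the small subunit gene with the highest level, measured 3880 and 3977 TPM in CS1 and 3779 and 3783 TPM in PBS (0.05 ± 0.02, adjusted p = 0.0550). Their groups did not overlap, but the gaps were small beside those of the other members.

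Rps9 lay close to the threshold and passed with a pseudocount of 0.1 (adjusted p = 0.0487), with a filter at 10 TPM (0.0411) and without CS1 replicate 1 (0.0485), over a range of 0.0411 to 0.622 across alternatives. Rps14, a platform protein, measured 2288 and 2378 TPM in CS1 and 2149 and 2149 TPM in PBS (0.12 ± 0.02, adjusted p = 0.00632), but after quantile normalization it was lower in CS1 (-0.08, adjusted p = 0.0216), and with an unweighted trimmed mean of M values it did not pass (adjusted p = 0.0572). Rps23, which carries residues of the decoding centre, measured 3262 and 3325 TPM in CS1 and 2672 and 2649 TPM in PBS (0.31 ± 0.02).

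The rule for named genes leaves 45 members without a description of their own, 27 of the large and 18 of the small subunit. All 45 rose as deposited and had both CS1 libraries above both PBS libraries, though Rpl19 was called lower after quantile normalization. The rule names every member that missed the call or fell, so that all 45 rose was fixed by the rule and adds no support. The highest of the 45 was Rpl13a, which in humans is known to leave the ribosome as part of an inhibitor of inflammatory mRNAs. It measured 3034 and 3056 TPM in CS1 and 2115 and 2121 TPM in PBS (0.52 ± 0.02, adjusted p = 7.67e-06). In the small subunit the lowest was Rps13, with 1346 and 1376 TPM in CS1 and 1262 and 1226 TPM in PBS (0.13 ± 0.02, adjusted p = 0.00383). These genes, Rps19 below and those of the sequence windows were named after their values were seen.

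Of 20 tested genes mutated in Diamond-Blackfan anaemia, 19 rose and 1 was called lower, and their median log2 fold change was 0.35. Of all 77 genes 71 (92.2%) rose, at a median of 0.33, and of all tested features 35.3% were called higher. The counts thus do not set the disease genes apart from the 77 genes. The gene called lower among the 20 was Rpl26, which met the minimum only through PBS. Rps19, the gene most often mutated in that disease, measured 1816 and 1823 TPM in CS1 and 1330 and 1425 TPM in PBS (0.40 ± 0.03). The 28 members that hold a snoRNA gene within their bounds had a median of 0.35, and the 49 that hold none one of 0.33. Across the 73 genes averaging above 100 TPM, the log2 fold change went with coding length with a Spearman's rho of -0.35, beside -0.11 over 10855 tested protein-coding features. With transcript length rho was -0.22 across the 73 genes, close to the -0.19 over the protein-coding features. With the number of exons it was -0.34 and -0.07. With the mean log2 level rho was -0.02 across the 73 genes and -0.24 over the protein-coding features. These correlations are across genes that share their libraries and are descriptions only. Genes with a coding length below the median of 468 bases had a median log2 fold change of 0.40 (35 genes), and those at or above it one of 0.29 (38 genes).

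**Figure D3:**
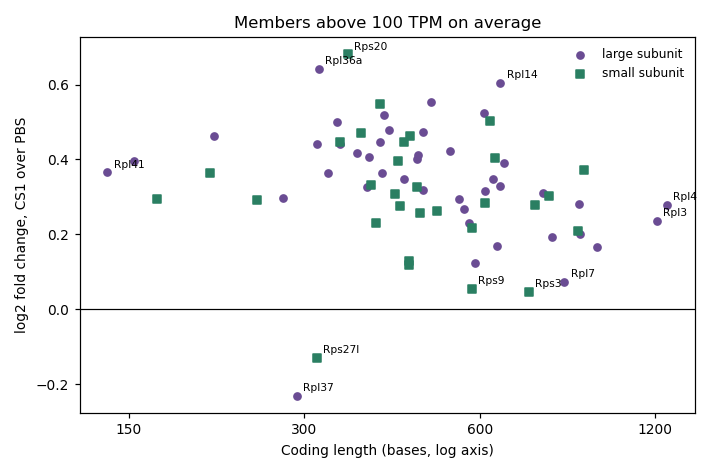
Log2 fold change, CS1 over PBS, against coding length in bases (log axis, longest annotated coding transcript) for the 73 genes averaging above 100 TPM. Circles are large and squares small subunit genes. The longest, Rpl4 and Rpl3, lie at 0.28 and 0.24, and the highest points, Rps20 and Rpl36a, are short genes.

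Many ribosomal protein genes have near-identical processed copies elsewhere in the genome, so a read may belong to any of them. For 63 of the 77 genes, at least 50% of the 50-base windows of the coding sequence also occurred in a GENCODE M21 transcript of another gene, and for 26 genes all windows did. The values of single members are uncertain to that extent. In 10 of the 82 matching symbols, another listed feature held at least 50% of these windows. Where such a copy was listed, the level could stand with the copy instead of the gene.

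Rps27 and Rpl30, both below the minimum, were among these. Rps27, a zinc-finger protein of the small subunit, was listed at 0.02 in all 4 libraries. Its copy Rps27rt (chromosome 9, 114982366 to 114982739), whose transcript holds all of its windows, measured 3308 and 3431 TPM in CS1 and 2994 and 3017 TPM in PBS. Rpl30 was listed at 0.01 in 3 libraries and at 9.17 TPM in CS1 replicate 2. Its copy Gm12191 (chromosome 11, 49678710 to 49679057), a processed pseudogene with 83.1% of its windows, measured 1675 and 1683 TPM in CS1 and 1404 and 1374 TPM in PBS. Both copies stood at levels common among the 77 genes, 60 of which averaged at least 1000 TPM.

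The call of Rpl26 as lower in CS1 also concerned a gene with such a copy. Rpl26 (chromosome 11, 68901583 to 68906989) was listed at 0.01 in both CS1 libraries and at 5.21 and 16.0 TPM in PBS, so it met the minimum only through PBS and no fold is given. Gm15772, a processed pseudogene on chromosome 5 with 74.1% of its windows, measured 2977 and 3125 TPM in CS1 and 2493 and 2298 TPM in PBS. The sum of both was 2977 and 3125 TPM in CS1 and 2498 and 2314 TPM in PBS, a log2 fold change of 0.34 ± 0.04 (adjusted p = 0.000811). The direction was thus opposite for the gene alone and for the gene with its copy.

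Rpl34 measured 25.7 and 22.2 TPM in CS1 and 9.09 and 18.6 TPM in PBS. Its fold, the highest of all members (0.83 ± 0.29, adjusted p = 0.0489), rested on low values, and without PBS replicate 1 it was 0.35 (adjusted p = 0.0513). Its copy Rpl34-ps1 on chromosome 6 measured 1673 and 1723 TPM in CS1 and 1508 and 1568 TPM in PBS. Their sum had a log2 fold change of 0.15 ± 0.03 (adjusted p = 0.00469), among the lower ones. Rpl14 shared its level almost evenly with Rpl14-ps1 (907 and 889 TPM in CS1, 657 and 668 TPM in PBS), and their sum rose by 0.51 ± 0.02. With all such copies summed into their genes, 79 genes met the minimum, 74 rose and 2 fell, Rpl3l and Rps27l. Of all 11858 features tested in that fit, 4190 were called higher and 3755 lower. This summing was chosen after the values were seen. The summed share then differed by 3.44 percentage points.

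**Figure D4:**
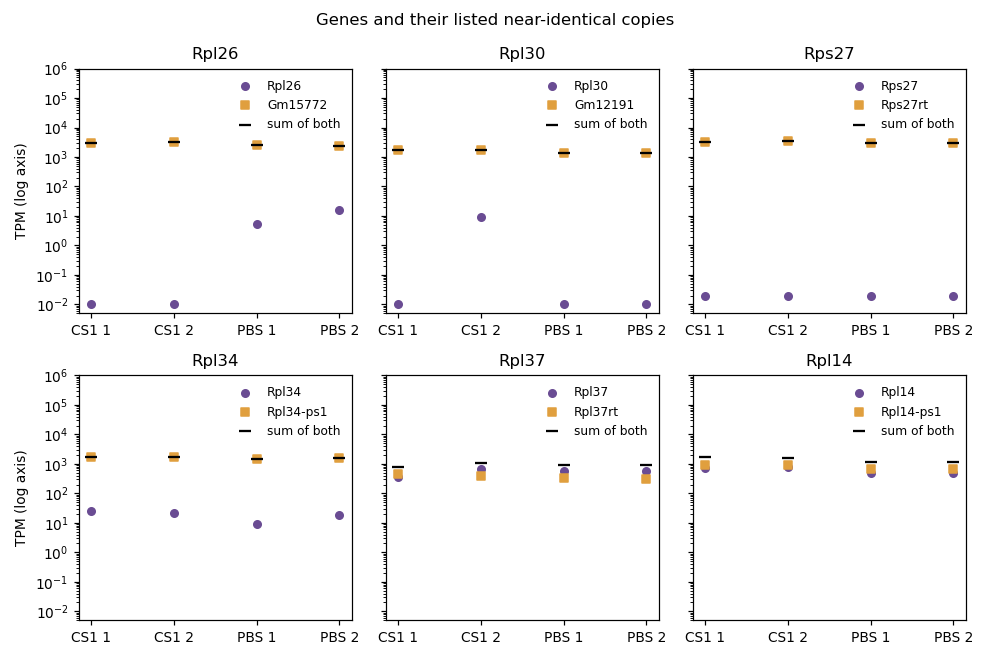
TPM on a log axis in each library for 6 genes (circles), their listed near-identical copies (squares) and the sum of both (dashes). For Rpl26, Rpl30, Rps27 and Rpl34 the sum lies at the copy, between 1374 and 3431 TPM over the libraries. For Rpl26, Rpl30, Rps27, Rpl34 and Rpl14 both CS1 sums are above both PBS sums, while for Rpl37 the lowest and the highest sums are those of the CS1 libraries.

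Rpl37 was the member whose replicates disagreed. It measured 347 and 676 TPM in CS1 and 563 and 574 TPM in PBS, so that the CS1 libraries lay on either side of PBS (log2 fold change -0.23 ± 0.28, adjusted p = 0.500). Without CS1 replicate 1 it was higher in CS1 (0.25, adjusted p = 0.00387), and without CS1 replicate 2 it was lower (-0.71, adjusted p = 0.000733). Its copy Rpl37rt measured 439 and 379 TPM in CS1 and 336 and 309 TPM in PBS. The sum of gene and copy was 786 and 1054 TPM in CS1 and 899 and 882 TPM in PBS, still without a shared direction of the CS1 libraries (adjusted p = 0.840).

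Rpl3 and its paralog Rpl3l, both among the matching symbols, moved in opposite directions, with Rpl3l at a low level. In the other pairs of this paragraph a gene was at or near the lowest listed value, so their directions cannot be compared. Rpl3l, which replaces Rpl3 in striated muscle, measured 3.36 and 2.67 TPM in CS1 and 9.42 and 8.35 TPM in PBS. It fell by 1.30 on the log2 scale (SE 0.13, adjusted p = 0.000304), while Rpl3 measured 1868 and 1907 TPM in CS1 and 1607 and 1598 TPM in PBS (0.24 ± 0.02). Rps27l, a paralog of Rps27 induced by p53, measured 176 and 175 TPM in CS1 and 190 and 194 TPM in PBS. Its fall was slight (-0.13 ± 0.02, adjusted p = 0.00457), and it was lost after quantile normalization (-0.02, adjusted p = 0.451). Rpl39, a short protein of the exit tunnel, measured 1948 and 1990 TPM in CS1 and 1471 and 1524 TPM in PBS (0.40 ± 0.02). Rps4x, the X-linked small subunit gene, measured 2845 and 2870 TPM in CS1 and 2280 and 2353 TPM in PBS (0.30 ± 0.02). Both rose, while their paralogs were at or near the lowest listed value. Rpl10l and Rpl39l, known from the testis, were listed at 0.01 throughout, and Rps4l was listed at 0.01 except for 0.28 TPM in PBS replicate 2.

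Other paralogs carry symbols outside the rule. Rpl22l1, whose mRNA is held down by RPL22 protein in mice, measured 250 and 251 TPM in CS1 and 191 and 193 TPM in PBS (0.38 ± 0.02, adjusted p = 4.50e-05). Rpl22 itself measured 268 and 272 TPM in CS1 and 215 and 216 TPM in PBS (0.33 ± 0.02), so that both paralogs rose. Rpl36al, a near copy of Rpl36a, measured 829 and 871 TPM in CS1 and 732 and 772 TPM in PBS (0.18 ± 0.04). Rpl7l1, a protein of early assembly, measured 77.6 and 77.2 TPM in CS1 and 76.3 and 73.2 TPM in PBS and did not pass (0.05 ± 0.03, adjusted p = 0.229).

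Of the ribosomal genes the symbol rule leaves out, 5 of 7 tested rose and 0 fell, beside 35.3% of all tested features called higher and 31.6% called lower. Fau, a ubiquitin-like fusion with a small subunit protein, measured 2547 and 2697 TPM in CS1 and 2280 and 2342 TPM in PBS (0.18 ± 0.03, adjusted p = 0.00356). After quantile normalization Fau did not pass, and its fold was negative (-0.02). Rack1, a scaffold protein on the head of the small subunit, measured 1669 and 1673 TPM in CS1 and 1600 and 1677 TPM in PBS (0.03 ± 0.03, adjusted p = 0.374), with overlapping groups. Quantile normalization gave it a negative fold (-0.15, adjusted p = 0.00160), as did an unweighted trimmed mean of M values (-0.01, adjusted p = 0.765). Rps3a1, named after its values were seen since its symbol has a number after the letter, rose by 0.26 ± 0.02.

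Lists of genes around the ribosome are given beside the 35.3% of all tested features called higher and the 31.6% called lower, and the counts of several lists lie near these shares. Among 15 other mRNAs with a terminal oligopyrimidine tract, 9 rose and 3 fell, at a median of 0.13. Hnrnpa1 and Eef1b2 had the smallest p among them. Hnrnpa1, which encodes an RNA-binding protein, measured 147 and 136 TPM in CS1 and 75.5 and 78.6 TPM in PBS (0.87 ± 0.04). Eef1b2, the exchange factor of elongation factor eEF1A, measured 467 and 463 TPM in CS1 and 370 and 371 TPM in PBS (0.33 ± 0.02). Of 78 mitochondrial ribosomal protein genes, whose products form a separate ribosome, 50 rose and 4 fell, at a median of 0.20. The mean log2 level of the 77 cytosolic genes minus that of the 78 mitochondrial ones was 4.65 and 4.65 in CS1 and 4.55 and 4.60 in PBS (exact permutation p = 0.333, two-sided).

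Of 12 genes for chaperones and importers of ribosomal proteins, 2 rose and 4 fell. The importer genes Ipo5 and Kpnb1 measured 56.0 and 53.8 TPM (Ipo5) and 99.6 and 95.6 TPM (Kpnb1) in CS1. In PBS they measured 76.2 and 75.7 TPM (Ipo5) and 127 and 126 TPM (Kpnb1), with log2 fold changes of -0.46 ± 0.04 and -0.37 ± 0.03. Of 9 late small subunit assembly genes, 3 rose and 2 fell, and the kinase gene Riok1 and the nuclease gene Nob1 had log2 fold changes of 0.58 and 0.29. Of 10 late large subunit assembly genes, 3 rose and 4 fell. Eif6, which keeps the subunits apart until the large one is mature, had a log2 fold change of -0.31, and the GTPase gene Gnl2 one of 0.29.

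Of 18 regulators of the translation of these mRNAs, 6 rose and 7 fell. Eif4ebp1, a repressor of cap-dependent initiation that mTOR inactivates, measured 143 and 145 TPM in CS1 and 244 and 233 TPM in PBS (-0.73 ± 0.03, adjusted p = 1.60e-05). Ddit4, an inhibitor of mTOR signalling, measured 299 and 295 TPM in CS1 and 193 and 194 TPM in PBS (0.62 ± 0.02, adjusted p = 9.06e-06). Larp1, named after its value was seen, measured 105 and 104 TPM in CS1 and 142 and 144 TPM in PBS (-0.46 ± 0.03). Of 11 transcription factors linked to ribosomal protein genes, 1 rose and 7 fell, at a median of -0.28. Those with the smallest p, Zbtb7a and Nfya, had log2 fold changes of -0.64 and -0.61. Myc, Gabpa of the ETS family and Yy1, named after their values were seen, had log2 fold changes of -0.75, -0.28 and -0.22. Of 11 ribosome quality control genes, 4 rose and 5 fell, with log2 fold changes of -0.41 for G3bp1 and -0.70 for Ascc3.

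Marker genes of the cells moved with the groups as well. Of 8 markers of leukaemic myeloid cells, 4 rose and 4 fell, with summed levels of 2788 and 2820 TPM in CS1 and 3233 and 3260 TPM in PBS. Kit and Mpo, markers of progenitors, rose by 1.68 and 2.33, while Itgam and Csf1r, markers of mature myeloid cells, fell by 0.95 and 0.74 on the log2 scale. Ptprc, which encodes CD45 itself, measured 323 and 315 TPM in CS1 and 583 and 597 TPM in PBS. Summed markers of B cells were 31.7 to 34.4 TPM in CS1 and 53.7 to 55.3 TPM in PBS. Those of erythroid cells were 35.9 to 42.6 TPM in CS1 and at most 19.5 TPM in PBS, with 1 of 3 tested markers higher. That marker, Hbb-bs, was 13.5 and 12.2 TPM in CS1 and 0.01 in both PBS libraries, so it met the minimum only through CS1. Hba-a1 was 26.1 and 0.01 TPM in CS1 and 16.2 and 17.1 TPM in PBS. Hba-a2 was 0.01 and 19.3 TPM in CS1 and 0.01 in PBS. The erythroid sum thus rested on few genes, some at the lowest listed value. Markers of stroma and endothelium summed to 36.0 to 37.8 TPM in CS1 and 43.6 to 45.4 TPM in PBS. Nearly all of this was Pecam1 (37.8 and 35.7 TPM in CS1, 45.1 and 43.4 TPM in PBS). Cdh5 was at most 0.28 TPM and Col1a1 at most 0.31 TPM in any library, so the sum says little of these cells. Markers of T cells, natural killer cells, plasma cells and megakaryocytes each summed to at most 5.10 TPM in a CS1 library and at most 11.6 TPM in a PBS library, with Pf4 of megakaryocytes at 0.01 throughout. T cell markers summed to 3.87 and 5.10 TPM in CS1 and 10.5 and 9.28 TPM in PBS. Plasma cell markers summed to 1.84 and 2.74 TPM in CS1 and 10.9 and 11.6 TPM in PBS. Natural killer cell markers summed to 0.43 and 0.42 TPM in CS1 and 1.53 and 1.48 TPM in PBS. The megakaryocyte sums overlapped. The part of these cells in the difference of ribosomal protein genes was not tested. Column sums lay between 977973 and 986345 TPM, and the depth in reads is unknown.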

How the data were processed

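Poly(A) RNA from CD45.2-enriched spleen cells was sequenced in 4 libraries, 2 per group. The authors deposited 1 table of 24497 features, and its values were taken as TPM from their column sums (977973 to 986345) and from RSEM in the submitters' processing notes, which also name STAR and mm10 without versions. Neither the unit nor the annotation or strand setting is stated by those sources. No listed value is below 0.01.

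Values were transformed to log2(TPM + 1), which understates the change of low genes. Two-sided tests used limma (version 3.58.1, under R 4.3.3) with a variance trend on features reaching 1 TPM in 2 or more libraries, with Benjamini-Hochberg adjustment over 11866 features. TPM keeps no depth, so no counting interval is given. With 2 libraries against 2, an exact permutation test cannot give a p under 0.333.

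Gene models were from GENCODE M21 on GRCm38, which is mm10, with a match for all 77 genes, and promoters from RefSeq on GRCm38.p6. Exons of 24 members overlap an exon of another tested feature, 12 of them on the opposite strand, which adds uncertainty. Members and lists were chosen with earlier results of these data known. Named were the 4 highest and 4 lowest folds and 3 highest levels per subunit, members not called or lower, stalk, 5S particle and paralog genes, and from every other list the 2 of smallest p. Alternatives were quantile normalization, an unweighted trimmed mean of M values, other pseudocounts and filters, no variance trend, a replicate block and each library left out. The unweighted mean took the place of a planned weighted one, whose weights assume counts, and it and the summing of copies were chosen after seeing the data. Some genes that the rule for named genes takes are not reported here.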

Additional observations from a re-analysis of the deposited data

How the results depend on the processing

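Most ribosomal protein genes were higher in CS1 in every alternative run. The count of genes higher in CS1 was 71 in the main fit, 57 with no filter and 63 after quantile normalization. It was between 66 and 74 in the other alternatives that kept all libraries. The number of all features called higher changed as well. It was 4194 of 11866 in the main fit, 2797 of 24497 with no filter and 3844 of 11866 after quantile normalization. With a filter at 10 TPM it was 3109 of 8743. Leaving out each library in turn gave 69 to 72 higher, 42 to 44 of the large and 27 to 28 of the small subunit, and 3 to 4 lower. Without CS1 replicate 2, the library whose treatment field reads CS2, 69 were higher and 4 lower. The count of lower genes was 6 after quantile normalization and 1 with a filter at 10 TPM, where Rpl26 and Rpl3l are no longer tested. Of all features, 3990 of 11866 and 3360 of 8743 were called lower in these fits. The median log2 fold change was 0.25 after quantile normalization and 0.29 with the unweighted trimmed mean of M values, and 0.31 to 0.35 with a library left out. Over all tested features the median was -0.0052 and 0.0050 under those scalings, against 0.040 as deposited.

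Quantile normalization turned the sign of Rpl7 (-0.070), Rplp0 (-0.045), Rps14 (-0.084), Rps9 (-0.024), Fau (-0.022) and Rack1 (-0.15), and Rpl19 was called lower there too; the cause was not tested. Rack1 was also negative with the trimmed mean (-0.010), and it ranged from -0.0052 without PBS replicate 1 to 0.063 without PBS replicate 2. Rpl37 was 0.25 without CS1 replicate 1 and -0.71 without CS1 replicate 2, and 0.031 with its copy summed. Rpl26 turned to 0.34 with its copy summed. Rpl34 lost its call in most alternatives (adjusted p from 0.00183 to 0.382). Of 52 named genes, 16 changed call or sign in at least 1 alternative.

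The summed share differed by 3.01 to 3.39 percentage points, and the large over small ratio by 0.034 to 0.051, with a library left out. A fit with the replicate number as a block gave 71 higher and 3 lower, beside 4110 and 3640 of all 11866 features. Whether same-numbered libraries were paired is not known. Their deviations had a correlation of 0.02 over 11866 features and of -0.135 over the members, which cannot settle it with 1 difference per group. The replicate block left the share difference at 3.20 points and the ratio difference at 0.042. The lack of read depth limits what can be said of members at low TPM. The unweighted trimmed mean replaced the planned weighted one, whose weights assume counts, after results with the weighted one had been seen.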
